A study of Homo sapiens with 6 samples.

Results

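The genes described here are 9 that steer T cells through skin and lymph nodes, namely the chemokine receptor genes CCR4, CCR7, CCR10 and CXCR4, the egress receptor gene S1PR1, the selectin ligand genes SELPLG and FUT7, and the integrin genes ITGB1 and ITGAE. They were taken by symbol from the deposited count table, where all 9 were found among 26485 genes, and 6 of the 9 passed the filter on low counts that 12107 genes passed. The cells were H9, an established human T lymphoma line that the labels call cutaneous and that is known as a clone of the HUT 78 line. The control group was 3 libraries of H9 cells given the vehicle DMSO, and the PA4 group was 3 libraries of H9 cells given PA4 at 1 µM, both for 24 h. PA4 is a code name, and the series title speaks of a berbamine derivative. All libraries came from 1 line grown alone, so skin, endothelium and lymph node cells were not part of the model, and the labels do not say that replicates were separate cultures. P-values therefore measure only the spread between these libraries, which may be technical.

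T cells enter skin in steps. The glycoprotein PSGL-1, made by SELPLG and decorated by the fucosyltransferase FUT7, forms the cutaneous lymphocyte antigen that rolls on E-selectin, and the receptors CCR4 and CCR10 read the skin chemokines CCL17, CCL22 and CCL27. Entry into lymph nodes runs through L-selectin and CCR7, exit through the sphingosine 1-phosphate receptor S1PR1, and integrins hold the cell on vessel walls, matrix or epithelium. Malignant T cells of the skin and blood are known for high CCR4, the target of the antibody mogamulizumab.

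Libraries held 18282212 to 22875191 counts, and no 2 of them agreed within sampling noise (chi-square over its degrees of freedom, 1.48 to 6.81 between pairs). Of 12 T cell markers 10 reached 1 CPM (a count scaled to library size) in some library, with a summed level of 770 to 829 CPM in control and 765 to 803 CPM with PA4, while the defining markers CD4 and CD2 were almost absent, at 6 to 12 and 0 to 1 counts. Fewer markers of other cell types reached that level, 3 of 8 for B cells, 2 of 8 for natural killer cells and 1 of 8 for myeloid cells. For endothelium it was 0 of 8, for fibroblasts 2 of 8 and for epithelium 3 of 8. Some were well expressed. In control, natural killer markers summed to 76.0 to 89.2 CPM, mostly PRF1, and fibroblast markers to 58.4 to 72.4 CPM, mostly THY1. B cell markers summed to 39.6 to 45.0 CPM in control. Endothelial markers summed to at most 0.548 CPM in a library, with 4 of 8 at 0 in all 6. Epithelial markers summed to 151 to 156 CPM in control and 158 to 160 CPM with PA4, most of it EPCAM. The epithelial sum did not overlap between the groups, and its part in the results below was not tested. Of the 12107 tested genes, 28 had an adjusted p under 0.05 by edgeR's quasi-likelihood test and are said to be called. Leaving out control replicate 1 raised the number to 74, and leaving out control replicate 2 or PA4 replicate 1 lowered it to 17 or 18.

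Levels between genes were compared as TPM, which divides counts by the gene length of the deposited table and scales every library to the same total. In control libraries CXCR4 was the most abundant of the 9 genes and CCR4 came next, with SELPLG, ITGB1, CCR7 and ITGAE below them, and CCR10, S1PR1 and FUT7 near or at the limit of detection. Control ranges of neighbours in this order did not overlap, except those of CCR10 and S1PR1, and no test was made between genes. The order and the ratios between genes rest on the deposited lengths, which differ unevenly from the exon bases in GENCODE release 29. For CCR4 they are 1657 against 3095 bases, and for CCR7 2700 against 2508. For ITGB1 they are 4087 against 6011, and for ITGAE 3861 against 6657. The ranges that did not overlap show the spread between libraries only, and the order by GENCODE exon bases was not worked out. In these bulk libraries fewer cells with a transcript and less of it per cell cannot be told apart.

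CXCR4 is the receptor for CXCL12 and acts in homing to bone marrow and skin. Its level was 197, 206 and 201 TPM in control replicates 1 to 3, above that of 92.8% of tested genes. CCR4 stood at 162, 162 and 178 TPM, above 90.9% of tested genes, with replicate 3 the highest of the control libraries. Within each of the 6 libraries CXCR4 was 1.13 to 1.27 times as abundant per length as CCR4. CCR7, the receptor that takes T cells to lymph nodes, was lower at 30.4, 29.5 and 27.6 TPM. By the deposited lengths CCR4 exceeded CCR7 by 5.33 to 6.44 times in every library. Both ranges of ratios show the spread between libraries only and leave out the uncertainty of the lengths. CCR10, the other skin chemokine receptor of the group, had 5, 3 and 2 counts in control and 2, 3 and 2 counts with PA4, or 0.364 ± 0.163 TPM in control (SD, n = 3). Of its exon bases in GENCODE release 29, 14.6% overlap those of CNTNAP1 on the opposite strand, which had 48 to 80 counts, and 16.8% those of an antisense transcript. Whether counting used strand is not given in the sources used here.

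Among 23 chemokine receptor genes, 11 passed the filter, and 3 had 0 counts in all 6 libraries. The third most abundant after CXCR4 and CCR4 was CCR8, a receptor found on skin-resident and regulatory T cells, at 50.5 ± 1.497 TPM (SD, n = 3) in control. CCR1, which binds inflammatory chemokines, followed at 33.9 ± 1.404 TPM, then CCR7, and then CXCR3, a receptor of type 1 T cells, at 14.9 ± 0.691 TPM (SD, n = 3 each). Transcripts of the chemokines and partner proteins that bind these receptors and adhesion molecules were low or absent. Of 12 such genes 7 had 0 counts in every library, among them CCL17, and the highest was CDH1 at 4.57 ± 0.366 TPM (SD, n = 3), the gene of E-cadherin, which binds the integrin that ITGAE helps to form. VCAM1 and FN1, whose proteins bind integrins with the ITGB1 chain, stood at 2.04 and 0.101 TPM. CCR1 and CCL17 were named after their values were seen.

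**Figure D1:**
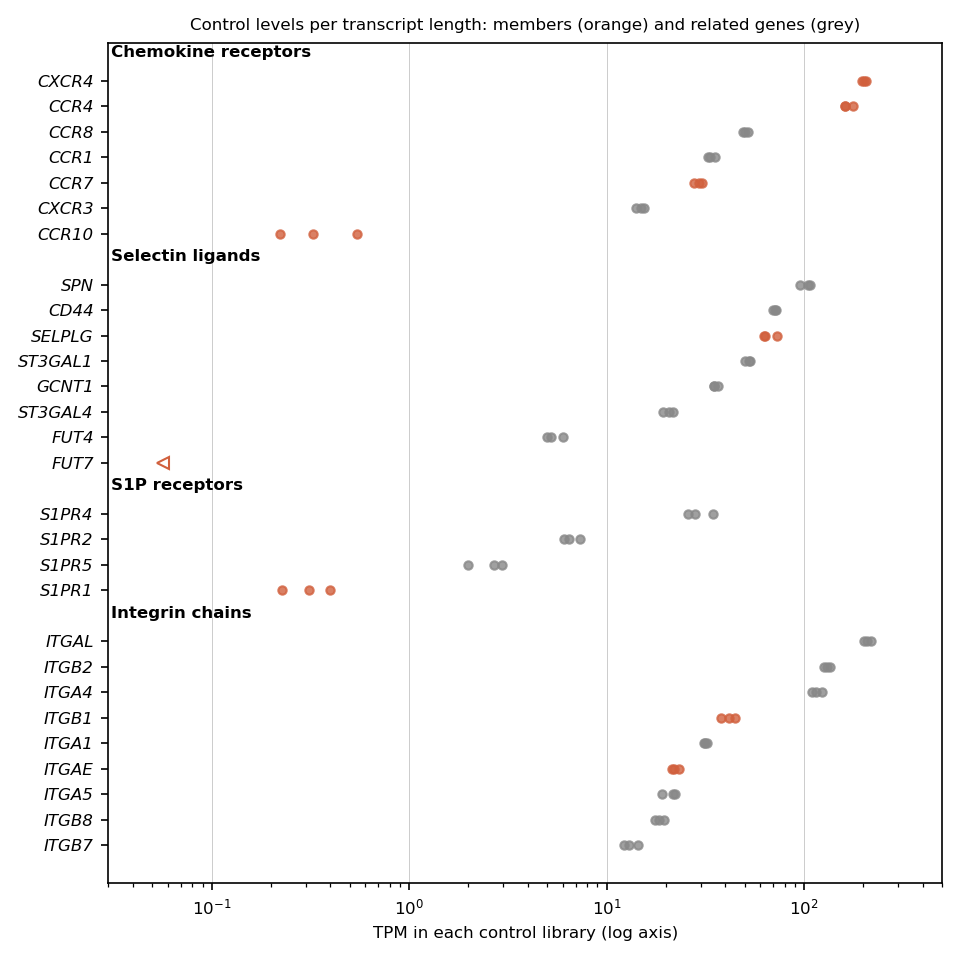
TPM of members (orange) and related genes (grey) in each of the 3 control libraries, on a log axis and grouped by role; the open triangle marks the 0.0564 TPM that 3 counts would give for FUT7, which had 0 counts. CXCR4 and CCR4 lie between 162 and 206 TPM, while CCR10 and S1PR1 lie below 1 TPM.

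The selectin ligand genes split. SELPLG had 1501, 1308 and 1258 counts in control, or 66.3 ± 5.55 TPM (SD, n = 3), close to CD44, another scaffold of selectin ligands, at 71.1 TPM, and below SPN, which can carry them as well, at 103 TPM. FUT7, which adds the fucose that selectins read, had 0, 0 and 0 counts in control and 0, 0 and 1 with PA4. Over 57504409 control counts, 3 counts for FUT7 would give 0.0564 TPM. The Poisson 95% interval of its 0 control counts reached 3.69 counts, slightly above that mark (counting error only). In GENCODE release 29 FUT7 shares 39.2% of its exon bases with C9orf139 on the opposite strand, listed at 0 counts in all libraries, and 27.6% with another protein-coding model on its own strand. How shared reads were counted is not given in the sources used here. Other genes of the same route were measurable. FUT4, a second fucosyltransferase of leukocytes, stood at 5.40 ± 0.527 TPM and the sialyltransferase gene ST3GAL4 at 20.6 ± 1.12 TPM (SD, n = 3 each), whereas ST3GAL6 had at most 1 count. GCNT1, which builds the branched sugar that carries the ligand, stood at 35.6 TPM. Of 25 genes in this list 21 passed the filter. FUT4, ST3GAL4 and ST3GAL6 were named after their values were seen.

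The promoters of CCR4 and FUT7, the skin-homing genes at opposite ends of the range, are shown because their levels differ so widely. That of CXCR4, the most abundant member and next to CCR4 in level, is shown beside them. RefSeq's GRCh38.p14 promoter table, with 250 bases before and 50 after each start, matched 6 of the 9 genes. Capitals mark AGATAA, a spelling of the site of GATA factors, and TATAAA, the TATA box, on either strand.
CCR4: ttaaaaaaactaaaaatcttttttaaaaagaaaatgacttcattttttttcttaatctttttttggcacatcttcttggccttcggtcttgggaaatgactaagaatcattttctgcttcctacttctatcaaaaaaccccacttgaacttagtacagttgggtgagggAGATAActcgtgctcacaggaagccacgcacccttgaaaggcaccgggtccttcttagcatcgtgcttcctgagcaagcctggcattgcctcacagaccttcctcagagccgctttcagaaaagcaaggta
CXCR4: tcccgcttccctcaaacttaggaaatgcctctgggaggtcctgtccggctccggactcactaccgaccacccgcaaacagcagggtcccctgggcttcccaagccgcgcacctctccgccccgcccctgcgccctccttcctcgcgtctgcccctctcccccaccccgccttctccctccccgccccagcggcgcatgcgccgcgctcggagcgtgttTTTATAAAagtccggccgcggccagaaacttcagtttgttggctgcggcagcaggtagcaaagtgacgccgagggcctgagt
FUT7: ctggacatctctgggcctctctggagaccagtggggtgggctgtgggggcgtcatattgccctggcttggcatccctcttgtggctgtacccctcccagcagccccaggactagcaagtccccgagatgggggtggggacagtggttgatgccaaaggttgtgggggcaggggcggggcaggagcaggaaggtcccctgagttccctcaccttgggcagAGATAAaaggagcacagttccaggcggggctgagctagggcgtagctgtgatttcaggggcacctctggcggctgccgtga
The windows lie at chr3:32951394-32951693 (plus strand), chr2:136118100-136118399 (minus strand) and chr9:137032039-137032338 (minus strand). AGATAA occurs once in the CCR4 window, 81 bases before the start, and once in that of FUT7, 31 bases before it, and 10.4% of 34943 promoter windows hold it. GATA3, the GATA factor of T cells, was abundant at 114 ± 4.89 TPM (SD, n = 3) in control. TATAAA was found in the CXCR4 window on both strands, as overlapping matches 32 and 30 bases before the start, and in 11.6% of all windows. The CXCR4 window held 27 CpG dinucleotides and those of CCR4 and FUT7 held 6 and 7, beside a median of 14 over all windows. S1PR1 and ITGB1, at 0.312 and 41.5 TPM, had 23 and 39. These matches describe the letters only.

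S1PR1 lets T cells leave lymph nodes along the gradient of sphingosine 1-phosphate. It had 9, 7 and 5 counts in control and 15, 6 and 5 counts with PA4, and the count of 15 in PA4 replicate 1 stood apart from the rest. Its level was 0.312 ± 0.0854 TPM in control (SD, n = 3). Of the other 4 receptors of the same lipid 3 were higher, and S1PR3 had at most 2 counts in a library. S1PR4, found mainly on blood and lymphoid cells, stood at 29.5 ± 4.48 TPM, S1PR2 at 6.62 ± 0.642 TPM and S1PR5 at 2.55 ± 0.496 TPM (SD, n = 3 each). The activation marker CD69, whose protein binds S1PR1 and removes it from the surface, stood at 53.6 TPM, and KLF2, a factor that drives S1PR1, at 18.7 ± 0.915 TPM (SD, n = 3). Of the 17 genes of this list 12 passed the filter. S1PR2, S1PR3, S1PR5 and KLF2 were named after their values were seen.

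ITGB1, the beta chain of most matrix integrins, had 1149, 1259 and 1328 counts in control, or 41.5 ± 3.55 TPM (SD, n = 3). Its alpha partners were led by ITGA4, which with it forms the receptor for VCAM-1, at 116 ± 6.69 TPM, and ITGA1, of a collagen receptor, stood at 31.7 ± 0.557 TPM (SD, n = 3 each). In each library ITGA4 was 2.66 to 2.89 times as abundant per length as ITGB1. ITGAE, which pairs with ITGB7 to hold T cells on epithelium, had 628, 661 and 598 counts, or 22.2 ± 0.904 TPM. ITGB7 stood at 13.2 ± 1.12 TPM (SD, n = 3), and the ratio of ITGAE to ITGB7 was 1.35 to 1.90 over the 6 libraries. Of the exon bases of ITGAE, 6.41% overlap HASPIN, an opposite-strand gene inside it that had 584 to 728 counts. The chains of LFA-1 exceeded both members, with ITGAL at 209 and ITGB2 at 131 TPM. In all 15 of 26 integrin chains passed the filter. ITGB7 and HASPIN were named after their values were seen.

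In RefSeq's annotation of GRCh38, CCR4 lies on chromosome 3 at 32951644 to 32956349, CXCR4 on chromosome 2 at 136114349 to 136118149 and S1PR1 on chromosome 1 at 101236899 to 101242313. CCR7, CCR10 and ITGAE all lie on chromosome 17, at 40553769 to 40565472, 42678889 to 42681843 and 3714628 to 3801188. SELPLG lies on chromosome 12 at 108621895 to 108633894, FUT7 on chromosome 9 at 137030174 to 137032088 and ITGB1 on chromosome 10 at 32900318 to 32958230. Values are reads counted over whole gene models, so isoforms were not told apart.

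The comparison asked how expression differed after PA4, a treatment that the submitters link to cell death. None of the homing genes was called. In edgeR's quasi-likelihood test 0 of 6 tested members passed an adjusted p under 0.05, beside 0.231% of all tested genes, and 0 had an unadjusted p under 0.05, beside 5.29% of all tested genes. DESeq2 and limma-voom also called 0. The members' median log2 fold change, PA4 against control, was -0.060, beside -0.0040 over all tested genes, with 2 members positive and 4 negative. Each of the 6 intervals lay within 1.5-fold in both directions, as did those of 10543 of all 12107 tested genes. The widest of the 6 reached from 0.854 to 1.04 of the control level. CCR10, S1PR1 and FUT7 were below the filter, and their summed counts were 10 and 7, 21 and 26, and 0 and 1 in control and PA4, in that order. Without the filter the S1PR1 interval ran from -0.73 to 1.17 log2 and that of CCR10 from -2.20 to 1.05, so a rise of 2-fold lay inside both intervals.

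CCR4 was at 103, 103 and 112 CPM in control and at 102, 100.01 and 99.1 CPM with PA4. All PA4 libraries lay below all control libraries, by a narrow margin. The log2 fold change was -0.079 ± 0.044 (SE), with a 95% interval of -0.17 to 0.016 and an edgeR adjusted p of 0.967. Without control replicate 3, the library with the highest value, it was -0.038. CXCR4 showed the same order, with 152, 159 and 153 CPM in control and 147, 148 and 147 CPM with PA4. Its log2 fold change was -0.066 ± 0.037 (SE), with a 95% interval of -0.14 to 0.013 and an edgeR adjusted p of 0.967. These were the 2 of 6 tested members whose groups did not overlap, both lower with PA4, beside 5.31% of all tested genes in that direction and 11.2% in either.

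CCR7 was at 31.5, 30.5 and 28.3 CPM in control and 28.9, 30.5 and 27.5 CPM with PA4, and the groups overlapped. ITGAE, at 32.5, 34.4 and 31.4 CPM in control and 30.3, 29.04 and 33.5 CPM with PA4, overlapped as well. Their log2 fold changes were -0.054 ± 0.067 and -0.085 ± 0.068 (SE). With 1 library left out, that of CCR7 ranged from -0.018 without PA4 replicate 3 to -0.096 without control replicate 3, and that of ITGAE from -0.036 without PA4 replicate 2 to -0.14 without PA4 replicate 3. SELPLG was at 77.7, 68.0 and 66.0 CPM in control and 73.0, 72.4 and 70.9 CPM with PA4, so the PA4 libraries fell inside the control range. ITGB1 was likewise at 59.5, 65.5 and 69.7 CPM in control and 66.6, 64.1 and 67.9 CPM with PA4. The log2 fold changes of SELPLG and ITGB1 were 0.031 ± 0.057 and 0.028 ± 0.057 (SE). Both turned sign when 1 control library was left out, SELPLG to -0.015 without control replicate 3 and ITGB1 to -0.032 without control replicate 1.

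**Figure D2:**
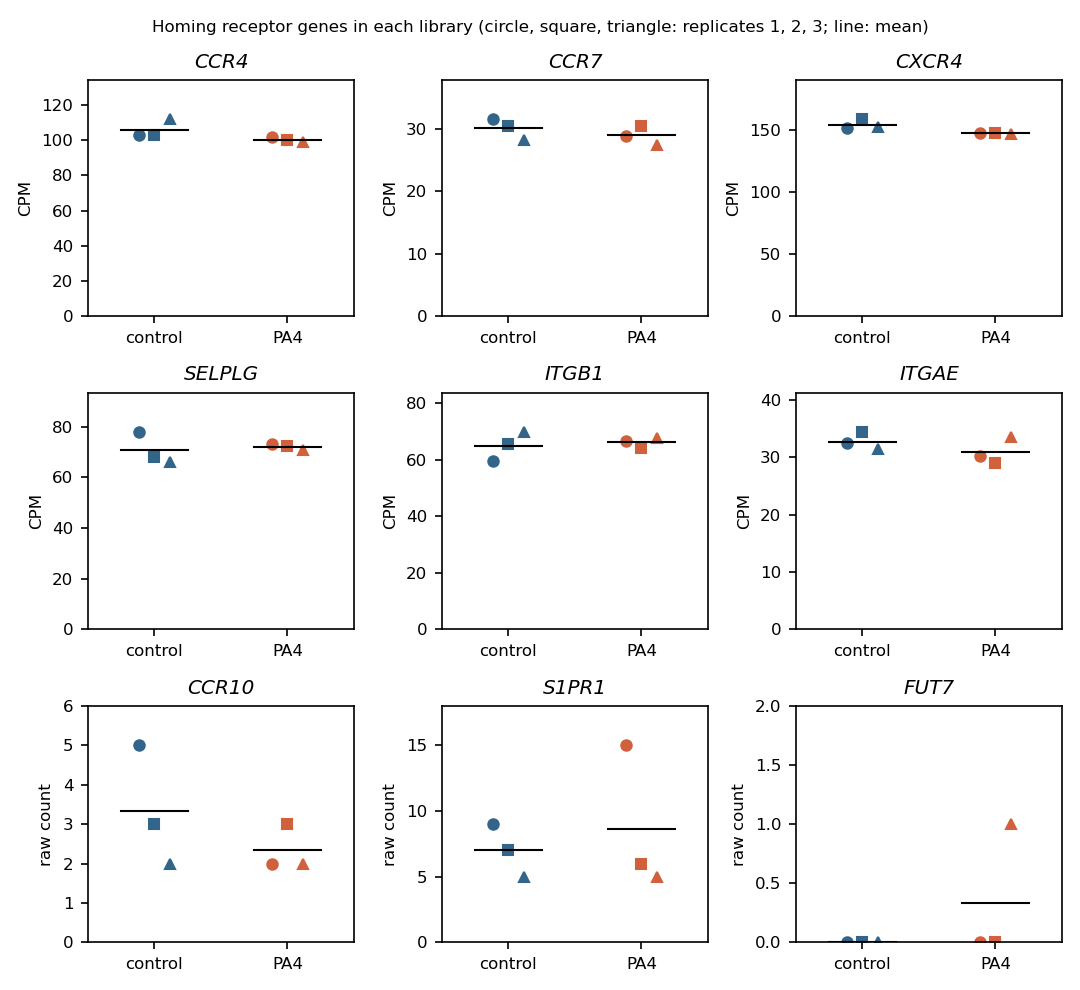
CPM of the 6 tested members and raw counts of CCR10, S1PR1 and FUT7 in each control (blue) and PA4 (orange) library, with marker shapes for replicates 1 to 3 and a line at the group mean; axes start at 0. CCR4 and CXCR4 are lower in all 3 PA4 libraries by a few percent, and the other panels overlap.

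**Figure D3:**
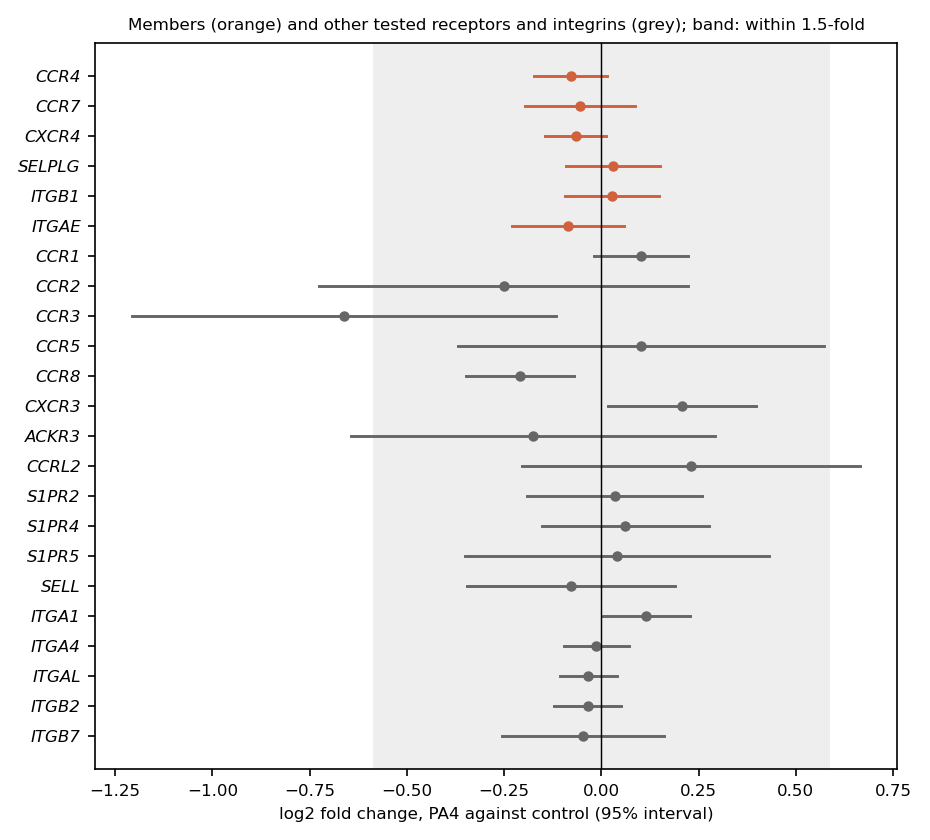
Log2 fold changes of PA4 against control with 95% intervals from edgeR for the 6 tested members (orange) and other tested receptors and integrins (grey); the band marks changes within 1.5-fold. The member intervals all cross 0 and stay inside the band, while those of CCR8 and CCR3 lie below 0 and those of CXCR3 and ITGA1 above it.

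The difference between the first and the third control library followed base composition. This pair differed most of all pairs, with a chi-square over its degrees of freedom of 6.81. A correlation with GC content was computed for this pair alone. Transcript GC content and the log2 difference in level between the first and the third control library had a Spearman rho of 0.788 over 8507 genes, a description across genes, which are not independent replicates. Among the tested members the sign of this difference went with GC content, while in size CXCR4 and CCR4 were out of order. ITGB1, with 40.0% GC, was at -0.23 log2 in that difference (the first library minus the third), CXCR4 with 43.9% GC had -0.011 and CCR4 with 45.8% GC had -0.12. ITGAE, CCR7 and SELPLG, with 54.8%, 55.0% and 59.4% GC, had 0.051, 0.16 and 0.23. ITGB1 and SELPLG thus spread in opposite directions within control. With offsets that remove each library's trend with GC content, added after the data were seen, the log2 fold changes of CCR4 and CXCR4 were -0.084 and -0.068, with edgeR adjusted p-values of 0.357 and 0.384, and 0 members were called.

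**Figure D4:**
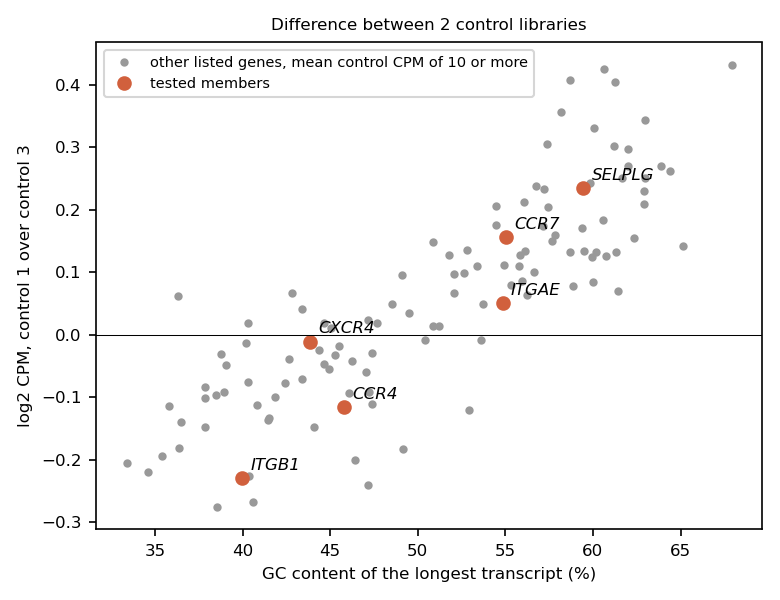
Log2 ratio of CPM between control replicates 1 and 3 against the GC content of each gene's longest transcript, for tested members (orange) and other listed genes with a mean control CPM of 10 or more (grey). ITGB1 lies at -0.23 and SELPLG at 0.23, at opposite ends of the GC range of the 6 tested members.

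Genes that act with the members were not called either. Over 153 genes of the 8 pathway lists other than the members, 121 passed the filter, and edgeR called 0, as did DESeq2 and limma-voom. An unadjusted edgeR p under 0.05 was reached by 8 of the 121 that were higher and 9 that were lower. All tested genes gave 2.69% higher and 2.6% lower at that level. The groups did not overlap in 11 of the 121 that were higher and 9 that were lower, beside 5.91% and 5.31% of all tested genes. The shares in the lists were thus larger than those of all tested genes, and this difference was not tested. The median log2 fold change of the 121 genes was -0.0037. Of their intervals 109 lay within 1.5-fold, beside 10543 of all 12107 tested genes. The 11 tested chemokine receptors had a median log2 fold change of -0.066, with 1 above and 2 below control at that unadjusted level. Their groups did not overlap in 2 genes higher and 4 lower with PA4, beside 5.91% and 5.31% of all tested genes, and the 4 include CCR4 and CXCR4. CCR8 was at 28.1, 29.7 and 28.4 CPM in control and 24.0, 24.5 and 26.1 CPM with PA4, a log2 fold change of -0.21 ± 0.07 (SE), with an edgeR adjusted p of 0.555. CXCR3, at 14.9 TPM in control and 17.1 TPM with PA4, was at 0.21 ± 0.09 log2 (SE), with an edgeR adjusted p of 0.920.

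Of 2 tested ligand and partner genes 0 were called, with a median of -0.16 log2. In the list of selectin ligands 0 of 21 tested genes were called, with a median of 0.015 log2, and the unadjusted level was reached by 1 gene in each direction. GCNT1 stood at 0.11 ± 0.04 log2 (SE) and the sulfotransferase gene CHST4, at 7 to 21 counts per library, at -0.91 ± 0.33 log2 (SE), with edgeR adjusted p-values of 0.827 and 0.783. Of 12 tested genes of sphingosine 1-phosphate and egress 0 were called, with a median of 0.037, and SGPL1, the lyase that destroys the lipid, stood at 0.11 ± 0.05 log2 and CD69 at -0.15 ± 0.06 log2 (SE). Integrin chains had 0 of 15 called and a median of -0.015, with ITGA1 at 0.12 ± 0.05 log2 (SE). Integrin activation genes had 0 of 17 called and a median of -0.027. VCL, the gene of vinculin, stood at 0.12 ± 0.04 log2 and SKAP1, an adaptor of integrin activation in T cells, at -0.51 ± 0.21 log2 (SE). The most abundant of these genes in control were that of the GTPase RAP1B at 184 TPM, ITGB1BP1, whose protein binds the tail of the ITGB1 chain, at 153 TPM, and FERMT3, the gene of the integrin activator kindlin-3, at 121 TPM.

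Of 29 tested genes of receptor signalling and migration 0 were called, with a median of -0.016. The actin and motility genes ARPC2, RHOA and CORO1A led in control, at 1033, 840.4 and 698 TPM. RGS16, which shortens G protein signals, stood at 0.096 ± 0.037 log2 and the GTPase gene RHOH at -0.12 ± 0.05 log2 (SE). Of 23 tested transcription factors and signals that set homing receptors 0 were called, with a median of 0.027. LEF1, GATA3 and RUNX3, factors of T cell development, led in control, at 272, 114 and 112 TPM. The factor gene ZEB2, at 0.854 TPM in control, had the lowest adjusted p of all these lists, 0.247 by edgeR, at -0.63 ± 0.16 log2 (SE). SKIL, a brake on TGF-beta signals, stood at 0.23 ± 0.06 log2 and GATA3 at -0.11 ± 0.04 log2 (SE), with edgeR adjusted p-values of 0.309 and 0.840. With the GC offsets SKIL was called higher, and with those offsets and a replicate block SKIL, VCL and RGS16 were called higher and RHOH lower.

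**Figure D5:**
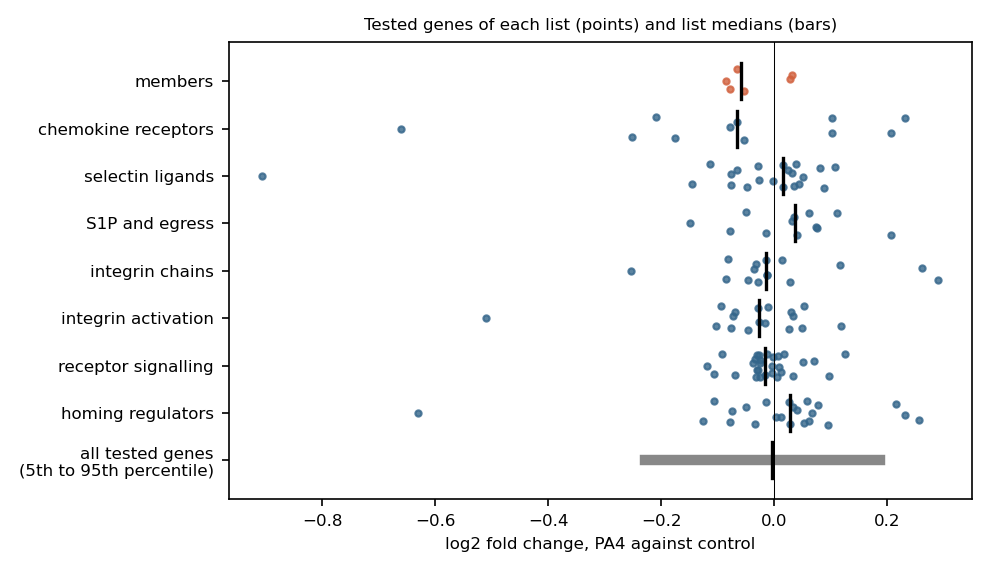
Log2 fold changes of PA4 against control for the tested genes of each list except the 2 tested ligand genes (points, members in orange) with the list median (black bar), above the 5th to 95th percentile of all tested genes (grey bar). List medians lie between -0.066 and 0.037, beside -0.0040 for all tested genes.

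The pattern of each tested member over the 6 libraries was compared with 8315 other genes of 10 CPM or more by Pearson's r of log2(CPM + 0.5). The closest genes were SCAPER for CCR4 (r = 0.992), RPL17 for CCR7 (r = 0.996), TIMM8B for CXCR4 (r = 0.980), KRT81 for SELPLG (r = 0.996), SUV420H1 for ITGB1 (r = 0.996) and BTN3A3 for ITGAE (r = 0.985). With 6 points these values describe the libraries, and the part of a GC trend in them was not tested. Between 28 genes for ITGAE and 369 for SELPLG exceeded an r of 0.9. Among the 15 pairs of tested members, r was lowest for CCR7 and ITGB1, at -0.87, and for SELPLG and ITGB1, at -0.84. It was highest for CXCR4 and ITGAE, at 0.58, and for CCR7 and SELPLG, at 0.52, and was 0.45 for CCR4 and CXCR4.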

How the data were processed

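The authors deposited raw counts of reads per gene for 26485 symbols, 1 column per library, with a gene length column. Trimmomatic 0.39, fastp 0.23.2, STAR 2.7.9a and featureCounts of Subread 1.6.4 with build hg38 are named, per the submitters' processing notes. Not given in the sources used here: the annotation, and the settings for strand and shared reads. From these counts, genes were filtered with filterByExpr, scaled by TMM and tested with glmQLFit and glmQLFTest of edgeR 4.0.16 (R 4.3.3), two-sided, with no covariate, and p-values were adjusted by Benjamini-Hochberg over 12107 genes. CPM rest on library sizes after TMM scaling, and TPM used the deposited gene lengths. Standard errors came from the F statistic. Alternatives used DESeq2 1.42.0, limma-voom (limma 3.58.1), other scaling, no filter, a replicate block, each library left out and, chosen after seeing the data, GC offsets. Across libraries the biological coefficient of variation was 3.92% (common dispersion). The procedure was tested on simulated data, which held no trend with GC content. The members, lists and tests were chosen with earlier results of these data known. Named from each list were all called genes, the 3 highest control TPM and the lowest unadjusted p in each direction, and for each tested member the gene most like it. Genes named for their levels outside this rule were chosen after their values were seen. Symbols such as PLPP3, GRK3 and HASPIN were matched through RefSeq synonyms, HASPIN as GSG2.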

Additional observations from a re-analysis of the deposited data

How the results depend on the processing

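Over 14 alternatives, 0 tested members were called in each, and CCR4, CXCR4, CCR7 and ITGAE kept their sign in all 14. CCR4 ranged from -0.099 to -0.038 log2, CXCR4 from -0.079 to -0.046, CCR7 from -0.096 to -0.018 and ITGAE from -0.14 to -0.036. SELPLG ranged from -0.015 to 0.11 log2 and ITGB1 from -0.032 to 0.083 log2 over the fits that leave out 1 library, each reversed in 1 of them. Across these fits 17 to 74 genes were called in all. Against 28 called genes, no low-count filter gave 62 and GC offsets gave 106, while the replicate block gave 59 and the block with GC offsets 134. In the pathway lists 0 were called, against 1 with GC offsets and 4 with the replicate block and GC offsets. Same-numbered libraries share only a number. Their deviations correlated at 0.16, -0.089 and 0.42, and only replicate 3 matched its own number best. The replicate block changed no call of a member. The median of all genes lay between -0.010 and 0.0012 log2 in all settings. Counts of 0 to 15 per library limit CCR10, S1PR1 and FUT7.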
